A study of Mus musculus with 18 samples.

Results

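Interferon response genes were followed in the left ventricles of 9 male C57BL/6 mice aged 20 weeks, of which 4 were wild type and 5 lacked mORF4/NBDY, a microprotein encoded by Nbdy that is known to bind the mRNA decapping machinery. The mice received no treatment, so the values are levels without an inducing stimulus. The sources used here do not give how the deletion was made or in which cells it acts. From every heart both poly-A RNA and ribosome footprints, the stretches of mRNA that translating ribosomes shield from nuclease, were sequenced. The genes were taken from a list of 33 mouse symbols and matched to the deposited tables by Ensembl identifier. The tables held 28 of them, among 10597 genes in all, and Usp18, Mx1, Ifi44, Zbp1 and Dhx58 were not analysed here. All 28 passed the minimum mean of 10 normalized reads in both assays.

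Interferons are secreted proteins that warn cells of infection. Type I interferon binds the receptor formed by IFNAR1 and IFNAR2 and, through the kinases JAK1 and TYK2, activates a complex that includes STAT2 and IRF9 and binds the interferon-stimulated response element in gene promoters. Interferon gamma acts through another promoter element, the gamma-activated site. The induced proteins sense foreign nucleic acid, block its translation or replication, and feed back on the pathway. In bulk tissue such as heart, cardiomyocytes, endothelial cells, fibroblasts and resident macrophages can all contribute their transcripts, and fewer cells of a type cannot be told apart from less RNA per cell. All 8 cardiomyocyte markers of a list were among the genes measured. So were all 12 endothelial and all 8 fibroblast markers, so presence alone is no check of the labelled tissue.

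Library depth, recovered from the deposited normalized values, differed between genotypes in RNA. The knockout RNA libraries held 15794158 to 20194680 reads and the wild-type ones 11172198 to 12363740 reads, without overlap, so genotype and any library batch in RNA cannot be told apart. Footprint libraries held 6671555 to 36702120 reads in wild type, with heart 2 the shallowest, and 22911504 to 40800937 reads in knockout. The targeted gene, Nbdy, was at 183 ± 116 normalized footprint reads in wild type (SD, n = 4), against 14.3 ± 3.46 in knockout (SD, n = 5), and the groups did not overlap.

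In RNA, 8 of the 28 interferon response genes differed between genotypes, 4 higher and 4 lower in knockout, with Benjamini-Hochberg adjusted p below 0.05 in limma (called, in what follows). Bst2, Ifi27l2a, Ifi27 and Ifi35 were higher, and Trim25, Ifit2, Oas2 and Rtp4 were lower. Of the 10580 genes tested in RNA, 49.4% were called (24.3% higher and 25.1% lower), so the 8 of 28 fall below the share of all genes. The standard errors (SE) of the members' log2 differences in RNA had a median of 0.13, against 0.09 over all genes tested. At an unadjusted p below 0.05, 10 of 28 members stood against 55.7% of all genes. By role, the calls were 0 of 2 sensors, 0 of 4 regulators, 1 of 2 conjugation genes, 2 of 9 effectors acting on RNA, 1 of 5 membrane or GTPase effectors and 4 of 6 other induced genes. The median log2 fold change of the 28, knockout over wild type, was 0.05, against 0.01 over all genes tested. In ribosome footprints no member was called in limma, and no member had an unadjusted p below 0.05, which 5.06% of all genes had. By the same test 0.02% of 9976 genes were called in footprints, so a count of 0 is near that share. In translational efficiency, the footprint signal over the RNA signal of the same heart, Bst2 and Ifi27l2a were lower, 2 of 28 against 14.4% of 9974 genes (7.83% higher and 6.55% lower). In RNA the interferon genes thus went in both directions.

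**Figure D1:**
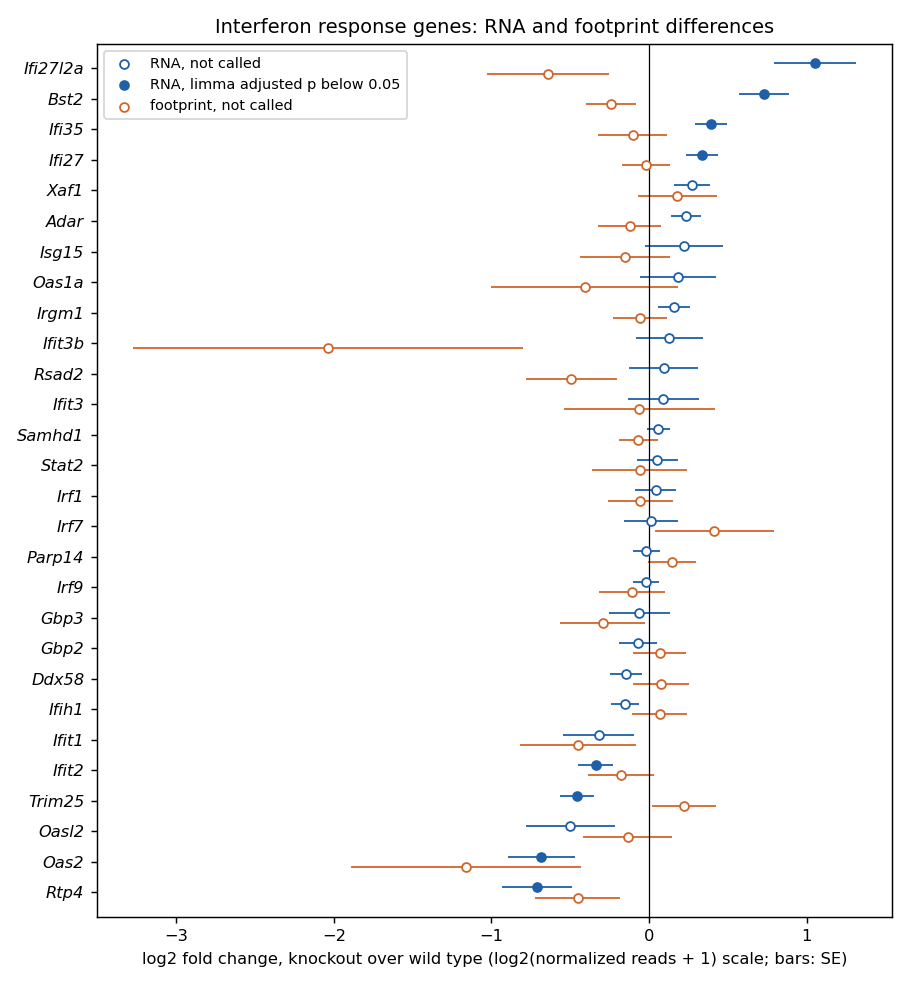
Log2 fold change, knockout over wild type, of the 28 interferon response genes in RNA (blue) and footprints (orange), with the SE as bars; filled points are called in limma at adjusted p below 0.05. The 8 called RNA values lie at both ends, from 1.05 for Ifi27l2a to -0.71 for Rtp4, and all footprint points are open.

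Bst2 (chromosome 8, 71534255 to 71537472, GRCm38.p6), which encodes tetherin, a membrane protein that holds budding virus particles at the cell surface, had the smallest adjusted p of the 28 in RNA. In wild-type hearts 1 to 4 its RNA was at 84.9, 119.5, 88.6 and 81.2 normalized reads, and in knockout hearts 6 to 10 at 193, 184, 133, 131 and 139. All 5 knockout hearts lay above all 4 wild-type hearts, a separation that 19.8% of all genes tested showed in this direction. The log2 fold change was 0.73 ± 0.16 (± is the SE; adjusted p by limma = 0.00262). Footprints on Bst2 went the other way in their means without being called, from 859 ± 109 in wild type (SD, n = 4) to 731 ± 133 in knockout (SD, n = 5), and the groups overlapped (log2 fold change -0.24 ± 0.16, SE; limma adjusted p = 0.854). Efficiency was 8.63, 7.91, 10.8 and 9.92 in wild type and 3.97, 5.16, 5.08, 4.69 and 4.69 in knockout, without overlap (log2 fold change -0.97 ± 0.23, SE; limma adjusted p = 0.00761). Of all genes tested 8.73% showed such a separation downward in efficiency.

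The promoter of Bst2 is shown because it holds matches to the element through which interferon acts and because its RNA had the smallest adjusted p of the 28. It is the RefSeq window of GRCm38.p6, chr8:71537423-71537722, minus strand, from 250 bases before to 50 bases after the gene's start, with matches to the core of the interferon-stimulated response element in capitals.
Bst2: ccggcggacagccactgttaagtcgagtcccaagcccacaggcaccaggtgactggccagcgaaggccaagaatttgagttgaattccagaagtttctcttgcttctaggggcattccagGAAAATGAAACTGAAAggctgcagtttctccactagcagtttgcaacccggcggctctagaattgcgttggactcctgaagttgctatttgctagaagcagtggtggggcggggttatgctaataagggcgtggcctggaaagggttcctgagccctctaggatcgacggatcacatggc
The core was searched on both strands as GAAA, any 2 bases and GAAA again, and 2 overlapping matches begin 130 and 124 bases before the start. The window also holds 1 match to the gamma-activated site, TTCNNNGAA, whose last bases overlap the first capitals.

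Ifi27l2a and Ifi27, small membrane proteins strongly induced by type I interferon, were both higher in knockout RNA. Ifi27l2a (chromosome 12, 103433873 to 103443680) was at 54.3, 78.8, 36.7 and 59.5 normalized reads in wild-type hearts 1 to 4 and at 209, 112, 95.0, 99.4 and 94.5 in knockout hearts 6 to 10. The groups did not overlap, and heart 6 stood well above the other 4 knockout hearts. Its log2 fold change was 1.05 ± 0.26 (± is the SE; adjusted p by limma = 0.00562), and 0.84 without heart 6 (limma adjusted p = 0.00603). Ifi27l2a footprints were at 376, 773, 282 and 482 in wild type and at 779, 373, 162, 222 and 182 in knockout. Here wild-type heart 2 and knockout heart 6 were the highest by far and the groups overlapped (log2 fold change -0.64 ± 0.39, SE; limma adjusted p = 0.851). Efficiency of Ifi27l2a was 8.13 ± 1.22 in wild type (SD, n = 4), against 2.58 ± 0.89 in knockout (SD, n = 5), without overlap (log2 fold change -1.69 ± 0.55, SE; limma adjusted p = 0.0463). That call was lost without any 1 heart other than heart 6, at limma adjusted p from 0.0637 to 0.101, and a replicate block for the heart in the limma model gave it an adjusted p of 0.00082.

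Ifi27 (chromosome 12, 103434189 to 103440245) RNA was at 220, 240, 246 and 204 in wild type and at 336, 319, 262, 262 and 264 in knockout, again without overlap. The log2 fold change was 0.34 ± 0.10 (± is the SE; adjusted p by limma = 0.0158). Ifi27 footprints were at 766 ± 65.8 in wild type (SD, n = 4), against 762 ± 118 in knockout (SD, n = 5), and the log2 fold change was -0.02 ± 0.15 (SE). Every knockout heart had a lower Ifi27 efficiency (2.25 to 2.88) than every wild-type heart (2.90 to 3.63), but the difference was not called (log2 fold change -0.35 ± 0.18, SE; limma adjusted p = 0.198). The RefSeq spans of Ifi27 and Ifi27l2a overlap, and the RNA kit was taken as not marking strand. Reads in the shared stretch then cannot be told apart, so both values are uncertain. Ifit1 and Ifit3b likewise overlap Ifit1bl1, and Trim25, Adar, Stat2, Isg15, Ifih1 and Gbp3 overlap RefSeq genes outside the tables.

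Ifi35, an interferon-induced leucine zipper protein, was the fourth gene with higher RNA. It was at 178, 197, 229 and 199 normalized reads in wild type and at 259, 271, 233, 250 and 309 in knockout, and the groups did not overlap (log2 fold change 0.40 ± 0.10, SE; limma adjusted p = 0.00656). Its footprints averaged 450 ± 54.5 (SD, n = 4) and 433 ± 133 (SD, n = 5), with knockout hearts 6 and 9 the lowest and the highest of all 9. Xaf1, a pro-apoptotic interferon target, was also higher in all 5 knockout hearts (128 to 182) than in the 4 wild-type hearts (114 to 122), but missed the threshold (log2 fold change 0.27 ± 0.11, SE; limma adjusted p = 0.0652). With these, 5 of 28 members separated upward in RNA and 2 downward, against 19.8% and 20.6% of all genes.

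Trim25, the E3 ligase that attaches ubiquitin to the RNA sensor RIG-I, had the smallest adjusted p among the lower genes. Its RNA was at 479, 651, 486 and 482 in wild type and at 440, 400, 355, 328 and 381 in knockout, without overlap, with wild-type heart 2 far above the rest. The log2 fold change was -0.46 ± 0.11 (± is the SE; adjusted p by limma = 0.00479), and without heart 2 it was -0.35 (limma adjusted p = 0.0118). Trim25 footprints were at 583 ± 120 in wild type (SD, n = 4), against 686 ± 173 in knockout (SD, n = 5). Its efficiency had a log2 fold change of 0.68 ± 0.25 (SE) at limma adjusted p = 0.0747, and was called without heart 10 (0.80, limma adjusted p = 0.0408).

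Ifit2, a protein with tetratricopeptide repeats that binds RNA and limits viral translation, was at 153, 174, 217 and 165 in wild-type RNA and at 144, 152, 132, 137 and 130 in knockout, also without overlap. The log2 fold change was -0.34 ± 0.11 (± is the SE; adjusted p by limma = 0.0235), and the call was lost without heart 3 or 8 (limma adjusted p = 0.0712 and 0.0513). Oas2 makes the oligoadenylates that activate RNase L. Its RNA was at 302, 394, 262 and 327 in wild type and at 266, 278, 161, 129 and 195 in knockout, and the groups overlapped. The log2 fold change of Oas2 was -0.68 ± 0.21 (± is the SE; adjusted p by limma = 0.0183), lost without heart 2 (limma adjusted p = 0.0612). Rtp4, a chaperone of membrane receptors induced by type I interferon, was at 181, 201, 137 and 211 in wild type and at 186, 103, 113, 91.1 and 80.1 in knockout. Knockout heart 6 lay among the wild-type hearts (log2 fold change -0.71 ± 0.22, SE; limma adjusted p = 0.0183). The call was lost without heart 2 or 4 (limma adjusted p = 0.0524 and 0.0543). Rtp4 overlaps Masp1 in RefSeq, so its RNA value, taken as unstranded, is uncertain.

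Footprints of these 3 genes were lower in their knockout means but were not called. Ifit2 footprints were at 360 ± 81.2 in wild type (SD, n = 4), against 318 ± 66.2 in knockout (SD, n = 5). Oas2 footprints were at 87.3, 114, 122 and 115 in wild type and at 91.9, 119, 3.48, 53.3 and 104 in knockout. Heart 8 stood out, with 4 Oas2 reads where the other knockout hearts had 54 to 167, and its Oas2 RNA of 161 was not the lowest. Rtp4 footprints were lowest in heart 8 as well, at 86.9, against 153 to 191 in the other knockout hearts and 166 to 238 in wild type.

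**Figure D2:**
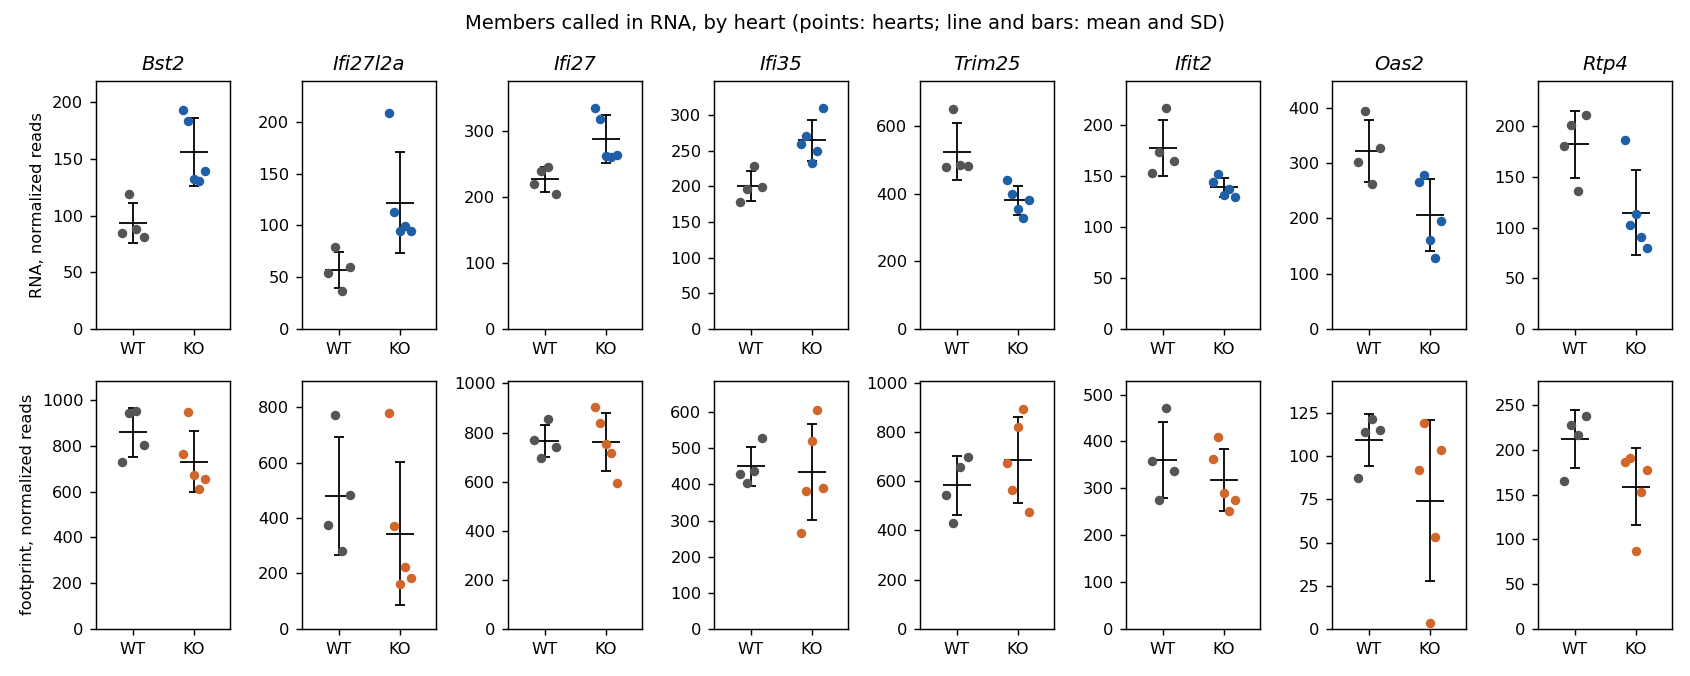
Normalized reads in RNA (upper row, blue for knockout) and footprints (lower row, orange for knockout) of the 8 interferon response genes called in RNA; each point is 1 heart, grey for wild type, with the mean and SD in black. RNA values do not overlap between genotypes for 6 of the 8, while Oas2 and Rtp4 overlap, and footprint values overlap for all 8.

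The remaining members were not called in any comparison. Among the sensors, RIG-I (Ddx58) and MDA5 (Ifih1), which recognise viral RNA in the cytosol, had RNA log2 fold changes of -0.15 ± 0.10 and -0.15 ± 0.09 (SE) and footprint values of 0.08 ± 0.18 and 0.07 ± 0.18 (SE). Ddx58 RNA spanned 273 to 368 in wild type and 252 to 303 in knockout, and Ifih1 RNA 177 to 203 and 154 to 192. The transcription factors Irf1, Irf7, Irf9 and Stat2 lay between -0.02 and 0.05 in RNA and between -0.11 and 0.41 in footprints. Irf9 varied little, with RNA of 285 ± 17.3 in wild type (SD, n = 4), against 282 ± 25.4 in knockout (SD, n = 5). Irf7, the factor that amplifies the type I response, had RNA of 190 ± 43.0 (SD, n = 4) and 191 ± 37.2 (SD, n = 5) and footprints of 62.4 ± 16.6 (SD, n = 4) and 85.6 ± 27.5 (SD, n = 5). Isg15, a ubiquitin-like modifier, was at 27.8 to 52.8 in wild-type RNA and 34.8 to 63.3 in knockout.

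Of the effectors that act on RNA, Ifit1, Ifit3, Ifit3b, Oas1a and Oasl2 had RNA log2 fold changes from -0.50 to 0.19 with SE between 0.21 and 0.28, where that of Ifi35 was 0.10. Adar, which edits adenosine to inosine in double-stranded RNA, was at 298 ± 34.8 in wild type (SD, n = 4), against 350 ± 29.9 in knockout (SD, n = 5), just short of the threshold (log2 fold change 0.23 ± 0.09, SE; limma adjusted p = 0.0551). Samhd1, which degrades the nucleotides that viruses need, had the smallest SE of the members in both assays, with log2 fold changes of 0.06 ± 0.07 in RNA and -0.07 ± 0.12 in footprints (SE). Rsad2 (viperin) had footprints of 204, 397, 430 and 492 in wild type and 340, 160, 382, 246 and 219 in knockout (log2 fold change -0.49 ± 0.29, SE; limma adjusted p = 0.851). The GTPases Irgm1, Gbp2 and Gbp3 lay between -0.07 and 0.16 in RNA and between -0.29 and 0.07 in footprints, and Parp14, an ADP-ribosyltransferase, was at -0.02 and 0.14.

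Ifit3 and Ifit3b are neighbouring copies on chromosome 19. Their promoter windows are shown because both copies carry the element within a shared stretch, and Isg15 because its matches are the most numerous among the members. All are RefSeq windows of GRCm38.p6 with matches to the response element core in capitals: chr19:34583279-34583578 (plus strand), chr19:34607707-34608006 (plus strand) and chr4:156200769-156201068 (minus strand).
Ifit3: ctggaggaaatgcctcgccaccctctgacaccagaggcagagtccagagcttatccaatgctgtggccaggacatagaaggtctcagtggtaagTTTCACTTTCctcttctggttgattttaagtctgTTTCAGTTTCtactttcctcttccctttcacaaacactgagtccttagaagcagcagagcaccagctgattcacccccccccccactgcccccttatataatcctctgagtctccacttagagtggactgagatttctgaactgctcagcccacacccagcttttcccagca
Ifit3b: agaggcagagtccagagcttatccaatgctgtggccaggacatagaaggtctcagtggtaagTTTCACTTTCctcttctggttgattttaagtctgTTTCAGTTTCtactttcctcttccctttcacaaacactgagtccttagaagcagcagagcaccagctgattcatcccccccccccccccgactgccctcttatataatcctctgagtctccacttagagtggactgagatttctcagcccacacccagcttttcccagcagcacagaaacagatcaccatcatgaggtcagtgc
Isg15: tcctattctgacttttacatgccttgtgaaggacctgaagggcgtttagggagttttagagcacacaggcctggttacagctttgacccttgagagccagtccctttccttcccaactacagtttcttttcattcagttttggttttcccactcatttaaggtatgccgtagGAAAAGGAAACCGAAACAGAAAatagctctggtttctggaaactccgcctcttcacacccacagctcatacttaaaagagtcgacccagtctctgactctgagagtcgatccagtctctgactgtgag
The windows of Ifit3 and Ifit3b share an unbroken run of 169 bases that holds both of their matches. The transcripts of these copies are known to be closely alike and can share reads, and the longer RNA reads and the short footprints need not divide between them in the same way, so the values of both are uncertain. Ifit3b footprints were at 60.6, 6.73, 0, 0 and 24.01 normalized reads in knockout hearts 6 to 10 and at 17.3 to 43.6 in wild type. A count of 0 allows up to 3 reads, or 2.61 normalized reads in heart 8 and 2.96 in heart 9, for counting error alone. The log2 fold change of Ifit3b footprints, -2.04 ± 1.24 (SE) with 0 reads in 2 hearts, was not called (limma adjusted p = 0.851). Ifit3b RNA showed no such gap, at 146 in heart 8 and 105 in heart 9.

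RefSeq promoter windows were at hand for 23 of the 28 members. The core of the response element was present in 13 of these 23 (56.5%), against 3.99% of 27025 genes in the table. The gamma-activated site was present in 7 of 23 (30.4%), against 9.55% of all genes. Among members called higher in RNA with a window, Bst2 held the core and Ifi35 did not. Neither Ifit2 nor Trim25, called lower, held it in its window. Of the 19 members with a window that were not called, 12 held it, among them Ifit1, Isg15, Rsad2, Stat2, Irgm1, Ddx58, Ifih1 and Gbp2. Windows for Oas2, Ifi27l2a, Ifi27, Rtp4 and Parp14 were not used here. These counts describe letters in a fixed window and are no test of binding.

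In RNA, the members' typical spread between hearts of a genotype was above that of all genes. The genes were not matched to the members by level, on which spread can depend. The median SD on the log2 scale was 0.23 over the members in wild-type RNA against 0.14 over all genes tested, and 0.26 against 0.13 in knockout RNA. In footprints it was 0.27 against 0.27 in wild type and 0.39 against 0.29 in knockout. Xaf1 and Samhd1 were the steadiest members in RNA, with an SD of 0.04 in wild type and 0.06 in knockout, while Ifit3 (0.49) and Oasl2 (0.62) were the most variable.

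Within single hearts many members deviated together. In knockout heart 6, RNA of 25 of 28 members lay above the knockout mean and 18 were the highest of the 5 knockout hearts, with a median deviation of 0.23 on the log2 scale; over all genes the median deviation there was -0.00 and 48.5% of genes lay above the mean. Oasl2 was an example, at 216 in heart 6 against 66.6 to 112 in the other knockout hearts. Hearts 9 and 10 were low, with 4 and 7 of 28 above the knockout mean and median deviations of -0.14 in each. Among wild-type hearts, heart 4 was highest (20 of 28 above the mean, median 0.11) and heart 1 lowest (5 of 28, median -0.12). In footprints heart 4 was again high, with 21 of 28 above the wild-type mean and a median of 0.19, and heart 1 low, with 8 of 28 and -0.20. Heart 6 had 18 of 28 footprint values above the knockout mean, with a median of 0.18. Wild-type hearts 2 and 3 changed sides between assays, at 0.09 and -0.07 in RNA and -0.09 and 0.16 in footprints.

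Markers of several other cell types were also high in heart 6. Of a list of 16 macrophage markers, 14 were in the tables, among them Csf1r, Adgre1 and C1qa, and their RNA lay above the knockout mean in heart 6 for 14 of 14, with a median deviation of 0.33. Their summed RNA signal was 7717 in heart 6 and 5455 to 6155 in the other knockout hearts, and 5944 to 6698 in wild type. A separate list of other interferon-induced genes was high there too, with 38 of 45 above the knockout mean and a median of 0.23. Fibroblast markers, 8 of 8 listed, lay above the knockout mean in heart 6 for 7 of 8 in RNA (median 0.41) and 8 of 8 in footprints (median 0.48), and endothelial markers for 10 of 12 in RNA (median 0.09). Their summed RNA was 22140 in heart 6 for fibroblast markers and 14840 to 16180 in the other knockout hearts. In wild-type heart 4, where the members were also high, 6 of 14 macrophage markers lay above the wild-type mean (median -0.01). In wild-type heart 2, RNA of 18 of 28 members lay above the wild-type mean. There 11 of 14 macrophage markers (median 0.15) and 8 of 8 fibroblast markers (median 0.31) did so too. The part of any of these cell types in the values of heart 6 was not tested. Between genotypes, macrophage RNA overlapped in its summed signal, with 3 of 14 markers called higher (Csf1r at 0.25, Adgre1 at 0.53 and C1qc at 0.67) and 1 lower (Cd68 at -1.05, the largest change of the list). Over all genes tested in RNA, 24.3% were called higher and 25.1% lower. The macrophage list split into 7 positive and 7 negative RNA values, with a median of -0.04. Of 11 lymphocyte markers 2 were measured, both lower in knockout RNA, and of 5 plasmacytoid dendritic cell markers 2 were, 1 of them Bst2 itself. Without heart 6 the number of members called in RNA was 9 (4 higher and 5 lower), and it held all 8 genes called with every heart.

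**Figure D3:**
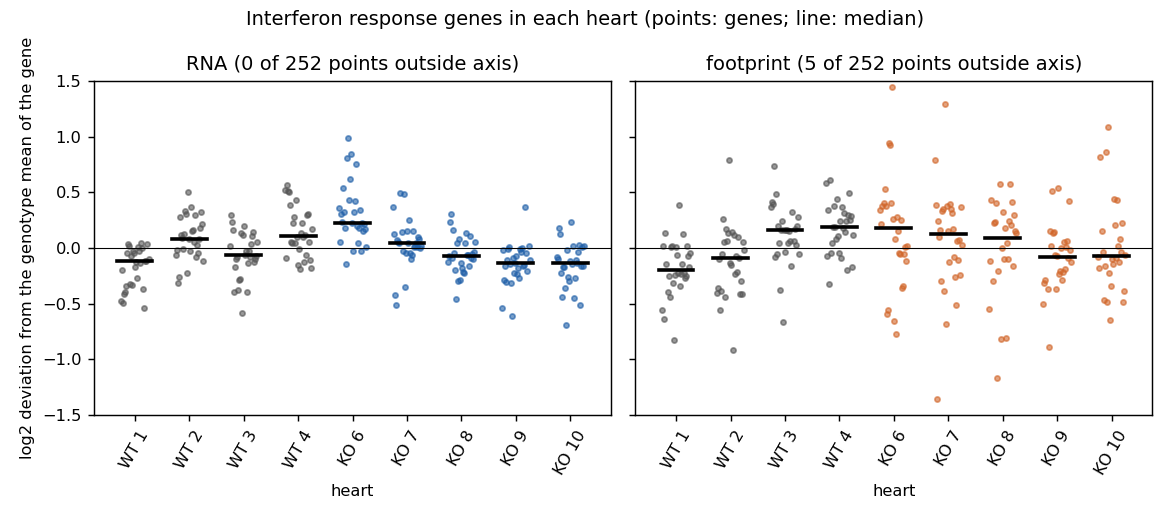
Deviation of each interferon response gene from its mean in the same genotype, on the log2(normalized reads + 1) scale, in RNA (left) and footprints (right); each point is 1 gene in 1 heart, grey for wild type and coloured for knockout, and the black line is the median. Knockout heart 6 is highest in RNA (median 0.23), wild-type heart 1 is lowest in footprints (-0.20), and 5 of 252 footprint points fall outside the axis.

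The footprint log2 fold change was negative for 21 of 28 members, with a median of -0.11, against 50.5% of all genes and a median of -0.00. All 9 effectors acting on RNA were among these 21, although for Ifit3 (-0.06) the mean of the normalized reads was not lower, at 57.6 in wild type and 59.9 in knockout. No member's footprint values separated between genotypes, which 1.6% of all genes did (0.772% higher and 0.832% lower). Leaving out 1 heart at a time, the number of negative values ranged from 16 to 22. Many members deviated together within single hearts, so the 28 signs are not independent of each other. Among markers of other cells, none called in footprints, the lists differed. Negative log2 fold changes were found for 13 of 13 macrophage markers tested (median -0.27, 3 with an unadjusted p below 0.05 in limma), 7 of 8 fibroblast markers (-0.20) and 10 of 12 endothelial markers (-0.07). They were found for 3 of 6 smooth muscle and pericyte markers (median 0.01) and 3 of 8 cardiomyocyte markers (0.04), and for 20 of 41 further interferon-induced genes (0.02). The macrophage list had a summed signal of 59600 in wild-type heart 2, the shallowest footprint library. It was 32610 to 35820 in the other wild-type hearts and 25270 to 37730 in knockout. Fibroblast sums were 98430 in heart 2, 54050 to 59880 in the other wild-type hearts and 52540 to 79360 in knockout. In heart 2, 13 of 13 macrophage and 8 of 8 fibroblast markers lay above the wild-type mean, so this heart weighs on both lists. The part of these cell types in the footprint values of the members was not tested. The median SE of the members was 0.23 on the log2 scale in footprints and 0.13 in RNA, against 0.20 and 0.09 over all genes tested.

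Ribosome occupancy per transcript differed widely between interferon genes of the same hearts. In wild type, Bst2 and Ifi27l2a had the highest efficiency of the 28, at 9.31 ± 1.28 and 8.13 ± 1.22 (SD, n = 4), in the 99.1st and 98.6th percentile of all genes tested. Rsad2 followed at 5.52 ± 1.28, Isg15 at 4.20 ± 1.15 and Ifi27 at 3.38 ± 0.325 (SD, n = 4); the values of Bst2 and Ifi27l2a overlapped, as did those of Rsad2 and Isg15. At the low end were Ifit3b at 0.26 ± 0.115, Irf7 at 0.34 ± 0.121, Oas2 at 0.348 ± 0.0822 and Ifit3 at 0.413 ± 0.0634 (SD, n = 4), whose ranges overlapped each other. Footprints fall on coding sequence and RNA reads on the whole transcript, so the coding share of a transcript enters this ratio. The members' median was 1.49, against 1.45 over all genes, and 14 of 28 lay above the latter. Members of one family differed in rank, with Ifit2 at 2.03 ± 0.321 and Ifit1 at 1.27 ± 0.259 (SD, n = 4) above Ifit3, and Oasl2 at 1.56 ± 0.265 above Oas1a at 0.518 ± 0.142 (SD, n = 4). The ranks of Ifit3, Ifit3b, Ifit1, Ifi27 and Ifi27l2a are uncertain, because copies or overlapping genes can share their reads. Such reads need not divide in the same way in both assays.

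**Figure D4:**
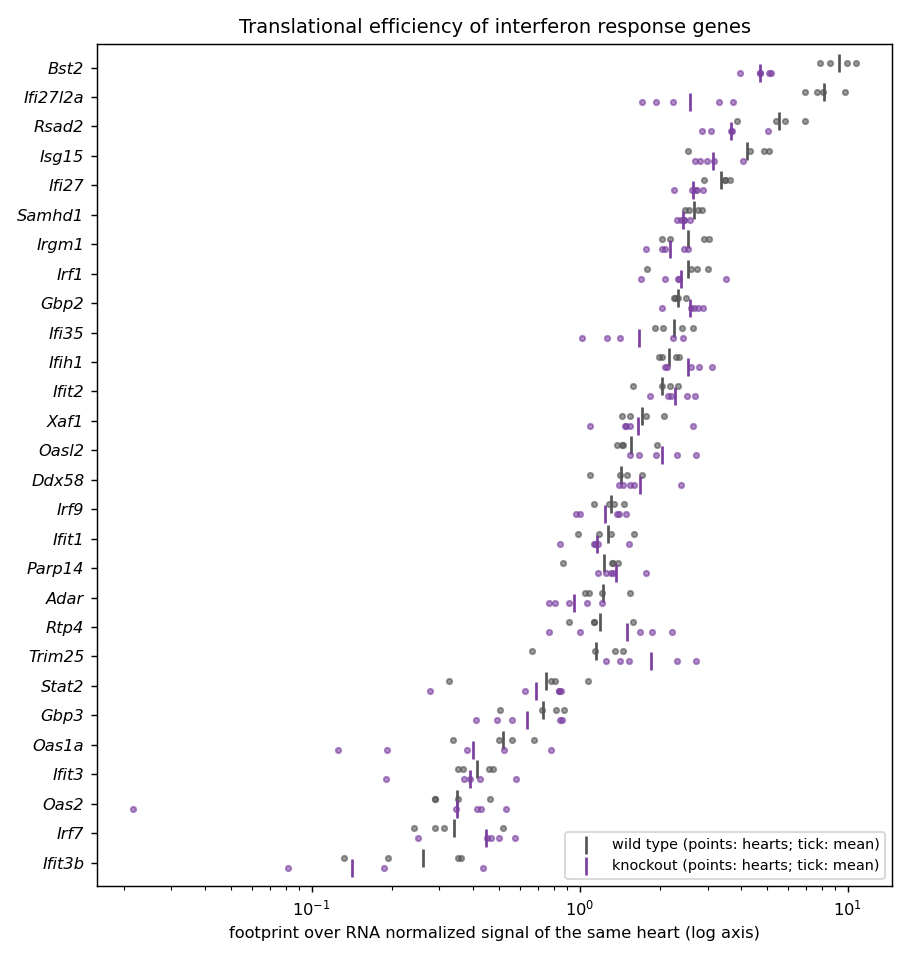
Footprint over RNA signal of the same heart for the 28 interferon response genes, on a log axis, ordered by the wild-type mean; grey is wild type and purple is knockout, points are hearts and ticks are means, and 2 knockout values of Ifit3b at 0 cannot be drawn. Bst2 and Ifi27l2a head the wild-type order at 9.31 and 8.13 and have knockout means of 4.72 and 2.58.

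Bst2 and Ifi27l2a were thus the 2 members with the highest wild-type efficiency and the 2 called lower in knockout. The same wild-type hearts enter the rank and the difference. A wild-type value that is high by chance raises the rank and lowers the difference, so the match is partly built in. Both genes were called higher in RNA with no call in footprints. The RNA values enter the efficiency, so a difference in RNA alone moves it the other way, and the 2 results are not independent. In the authors' deposited table both carry the class "buffered", as do 1609 of all genes (15.2%), and the other 26 members are classed "unchanged". The authors' deposited table also gives 8 members an adjusted p below 0.05 in RNA, 0 in footprints and 2 in efficiency, where it calls 49.1%, 0.0583% and 15.97% of genes.

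Further genes of the pathway, from a separate list of 106 of which 82 were measured, were called in RNA at the rate of all genes: 17 were higher and 24 lower, or 41 of 82 against 49.4%. Their median log2 fold change was -0.05. Upstream, Ifnar2, a chain of the type I receptor, had an RNA log2 fold change of -0.34 ± 0.05 (± is the SE; adjusted p by limma = 0.000314), while Ifnar1 was at 0.03 ± 0.10 (SE). Of the 2 kinases named above for the type I receptor, Jak1 was lower in RNA, at -0.27 ± 0.07 (SE). Tyk2 was at 0.25 ± 0.10 (SE) and was not called (limma adjusted p = 0.0588). Jak2, another kinase of the list, was lower at -0.34. Il10rb, also in the list of ligands and receptors, was called higher, at 0.28 ± 0.08 (SE; limma adjusted p = 0.0119). Of 9 sensors and adaptors 1 was higher and 3 lower. Myd88 was the higher one, at 0.60 ± 0.20 (SE; limma adjusted p = 0.025). Ticam1, the adaptor of Toll-like receptor 3, was lower, at -0.62 ± 0.08 (± is the SE; adjusted p by limma = 6.38e-05). Among 3 negative regulators 2 were lower. In the list of further interferon-induced genes 8 of 45 were higher and 14 lower, with Ube2l6, the conjugating enzyme for ISG15, at -1.20 ± 0.12, Shisa5 at -1.08 ± 0.11 and Ifi204, a DNA-binding family member, at -0.64 ± 0.07 (SE; limma adjusted p at most 3.1e-05).

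Antigen presentation genes went mostly upward in RNA, with 7 of 12 called higher and 1 lower, against 24.3% and 25.1% of all genes. B2m, the constant light chain of class I molecules, was the exception and the largest change, at 7899 normalized reads on average in wild type and 3191 in knockout (log2 fold change -1.31 ± 0.09, SE; limma adjusted p = 9.99e-07). Tapbp, the peptide-loading chaperone tapasin, was at 386 and 682 (log2 fold change 0.82 ± 0.07, SE; limma adjusted p = 3.52e-06). In footprints 0 of 78 pathway genes were called in limma and 7 had an unadjusted p below 0.05. The upward lean of the antigen presentation list was not seen there. Of its 12 genes 8 had a negative footprint log2 fold change and 4 a positive one, with a median of -0.09. B2m was at -0.30 ± 0.16, Tapbp at 0.11 ± 0.16 and H2-D1, the lowest, at -0.46 ± 0.14 (SE). Efficiency was called for 10 of 78 pathway genes against 14.4% of all genes, 6 higher and 4 lower. The 6 were B2m (1.01), Ticam1 (1.26), Ube2l6 (1.27), Shisa5 (0.89), Parp12 (0.86) and Eif2ak2 (0.57), and each had lower RNA in knockout. The 4 were Tapbp (-0.71), Psme2 (-0.76), Ifitm3 (-0.72) and H2-D1 (-0.63), of which all but H2-D1 were called higher in RNA. Because the RNA values enter the efficiency, these opposite directions are partly built in.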

How the data were processed

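Poly-A RNA and ribosome footprints were measured in the left ventricles of 9 mice, 4 wild type and 5 knockout, and samples were grouped by the genotype and assay in the labels. TruSeq chemistry was used for RNA and a NEXTflex kit for footprints, per the labels' protocols. The RNA kit was taken here as one that leaves strand unmarked. The submitters' processing notes list STAR 2.7.1a, HTSeq, DESeq2 and GRCm38 (mm10), with no role or order. The read signal deposited by the authors is a gene count divided by 1 size factor per library, judging by the values: dividing each library by its smallest value above 0 left 100% of values whole to within 0.01 reads. Knockout RNA libraries held 43 to 72 values of up to about 20 reads, against 176 or more in every other library but knockout footprint heart 6 (148), so their step rests on fewer low values; 49.6 to 50.4% of their recovered counts were odd, and a step 3% smaller left at most 1.3% whole. Count tests were limited to footprints for this reason. Efficiency was deposited as a ratio, footprint over RNA within each heart, and differed from the recomputed quotient by at most 0.0497%. The log2 fold changes and p-values deposited by the authors are printed where named as such; the efficiency fold changes deposited are wild type over knockout, judging by their sign.

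Here, limma 3.58.1 in R 4.3.3 was fitted with a mean-variance trend to log2(signal + 1) of all genes with a mean of at least 10, with Benjamini-Hochberg adjustment over all genes tested. RNA and footprints were fitted on genotype, and efficiency as the genotype by assay interaction over 18 libraries. The main efficiency fit ignores that RNA and footprints come in pairs from 1 heart, and only the replicate block uses this pairing. Fold changes on this scale understate low genes. The scripts were tested on simulated data with known changes. Alternatives were a pseudocount of 4, no filter on low values, TMM factors, quantile normalization, leaving out each heart, the heart as a replicate block, and, for footprints, edgeR 4.0.16 and DESeq2 1.42.0 on whole reads. The leave-out values of the counts of higher and lower members were added after seeing the data. Equal numbers mark 1 heart in both assays, per the labels. Deviations from the genotype mean correlated at 0.172 to 0.357 within a heart over 9974 genes, highest with its own heart for 8 of 9 (median between hearts of a genotype -0.105). The labels do not say whether hearts share a litter or day, and each heart is 1 animal. Promoter windows and gene positions came from RefSeq on GRCm38.p6. Exon lengths were not used here, so levels were not compared between genes, and the rule's highest member per kilobase in each role was not named.

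Members and lists were chosen with earlier results of these data known. Values in every heart were given for members called in any comparison or not overlapping in footprints, by rule, and for some others chosen after their values were seen. Of the other pathway genes the 6 with the smallest adjusted p in RNA and those called in efficiency were named, with some upstream genes added afterwards. Intervals from read counts cover counting error only. One gene of the signalling list is not reported here.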

Additional observations from a re-analysis of the deposited data

Results flagged for a closer look

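Of 112 groups of 4 or 5 hearts examined, 1 for each member, assay and genotype, 5 held a heart far from the others by Dixon's criterion at the 95% level, and chance flags about 1 in 20 groups. Irf1 RNA was at 394 in knockout heart 7 and at 243 to 281 in the other knockout hearts. Ifi27l2a RNA was at 209 in knockout heart 6 and at 94.5 to 112 in the others. Ddx58 footprints were at 604 in knockout heart 10 and at 384 to 433 in the others. Trim25 RNA was at 651 in wild-type heart 2 and at 479 to 486 in the others. Samhd1 RNA was at 427 in knockout heart 9, the low value of its group, and at 463 to 476 in the others.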

How the results depend on the processing

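The number of members called in RNA was 8 with all hearts and 7 to 9 over the alternatives, with 7 to 9 when 1 heart was left out. It was 9 with TMM factors and with quantile normalization, 5 higher and 4 lower in each, among them all 8. In footprints 0 members were called under every alternative run, edgeR and DESeq2 on whole reads included, which called 2 and 6 of all genes. In efficiency 2 members were called, against 1 with no filter on low values and 1 with quantile normalization (Bst2 in each), and 1 to 2 when 1 heart was left out (without heart 10, Bst2 and Trim25). With the heart as a replicate block 2 were called, Bst2 and Ifi27l2a again, while the share of all genes called rose to 18.57%. Over 336 single alternatives for the 8 genes named with values, 320 kept their side of the threshold, 15 lost a call and 1 gained one, each in the direction found with all hearts. In 5 of the 320 the sign turned without a call in either fit. Ifi27l2a efficiency accounted for 10 of the 15 losses, with adjusted p of 0.0504 in limma with no filter and 0.0704 with quantile normalization. The cause of these losses was not tested. Genes with few footprints, such as Ifit3b and Oas1a, had SE of 1.24 and 0.59 in footprints, which limits what could be called.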
